A study of Arabidopsis thaliana with 11 samples.

Results

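AGAMOUS (AG, AT4G18960), SHATTERPROOF1 (SHP1, AT3G58780), SHATTERPROOF2 (SHP2, AT2G42830) and SEEDSTICK (STK, AT4G09960) form the AG clade of MADS-box genes in Arabidopsis thaliana. AG is the C-function gene that specifies stamens and carpels and ends the activity of the floral meristem. SHP1 and SHP2 act redundantly in the valve margins of the fruit, and STK acts with them and with AG in the identity of ovules. All 4 encode MADS-domain transcription factors, which bind DNA as dimers at CArG boxes (CC, 6 bases of A or T, then GG) and assemble into larger complexes that often contain a SEPALLATA protein. APETALA1 (AP1) promotes the floral meristem, sepals and petals, and SEPALLATA3 (SEP3) is a partner of floral organ identity proteins.

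The members are the 4 loci themselves, and their data are the AP1 and SEP3 ChIP-seq peaks that the authors listed beside them. All samples came from inflorescences of the ecotype Landsberg carrying pAP1::AP1-GR in the ap1 cal double mutant, treated with dexamethasone (DEX), a steroid that moves the fusion of AP1 and the glucocorticoid receptor (GR) into the nucleus and starts flower formation at once in many meristems. An anti-GR antibody pulled down AP1-GR and an antibody to a peptide of SEP3 pulled down SEP3, each at 2, 4 and 8 days after induction, when floral meristems are specified, organs are specified and organs differentiate. Pre-immune serum was the mock control of each day, and AP1 and SEP3 of a day share it. There is 1 peak list per factor and day, so that 6 lists were examined. AP1 here is the fusion protein driven by the AP1 promoter, in plants without functional AP1 and CAL, so its peaks describe cells in which that promoter is active. Both SEP3 day 2 samples are titled day 2, but their tissue label reads 4 days, and every SEP3 day 2 value below carries that doubt.

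The 6 lists hold 18963 peaks, of which 29 were assigned to the members, 8 of AP1 and 21 of SEP3. The authors assigned a peak to a gene from 3000 bp upstream of its start to 1000 bp downstream of its end. By length, the AP1 lists hold 498, 956 and 1075 peaks at days 2, 4 and 8, and the SEP3 lists hold 1776, 6843 and 7815. The fold enrichment of a peak is its signal over the control background as a linear ratio, and q is its false discovery rate, deposited as −log10. Because each list was called separately from combined replicates, a fold enrichment is not on a common scale across lists, no spread between replicates can be given, and no difference below was tested. The standing of a peak is therefore given as the percentage of peaks in its own list that have a lower fold enrichment. The depth of the libraries was not analysed here, and a site with no called peak may still have been bound.

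AG carried 16 of the 29 peaks, SHP1 7, SHP2 6 and STK none. AG and SHP2 were bound by both factors on all 3 days. SHP1 had SEP3 peaks on all 3 days and no AP1 peak in any list. Its strongest SEP3 peak of day 8 ranked 810th, so that SHP1 had none at that day when each list was limited to its 498 peaks of highest fold enrichment, the length of the shortest list. STK had no peak of either factor on any day. With AP1, 2 of the 4 members had an assigned peak at each day, against 1.78%, 3.55% and 3.89% of the 27444 protein-coding genes of the annotation at days 2, 4 and 8. With SEP3, 3 of the 4 members had one at each day, against 6.59%, 25.7% and 28.3% of those genes. An assigned peak in all 6 lists was found for AG and SHP2, and for 0.998% of protein-coding genes. STK shared the lack of any assigned peak with 68.7% of protein-coding genes.

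**Figure D1:**
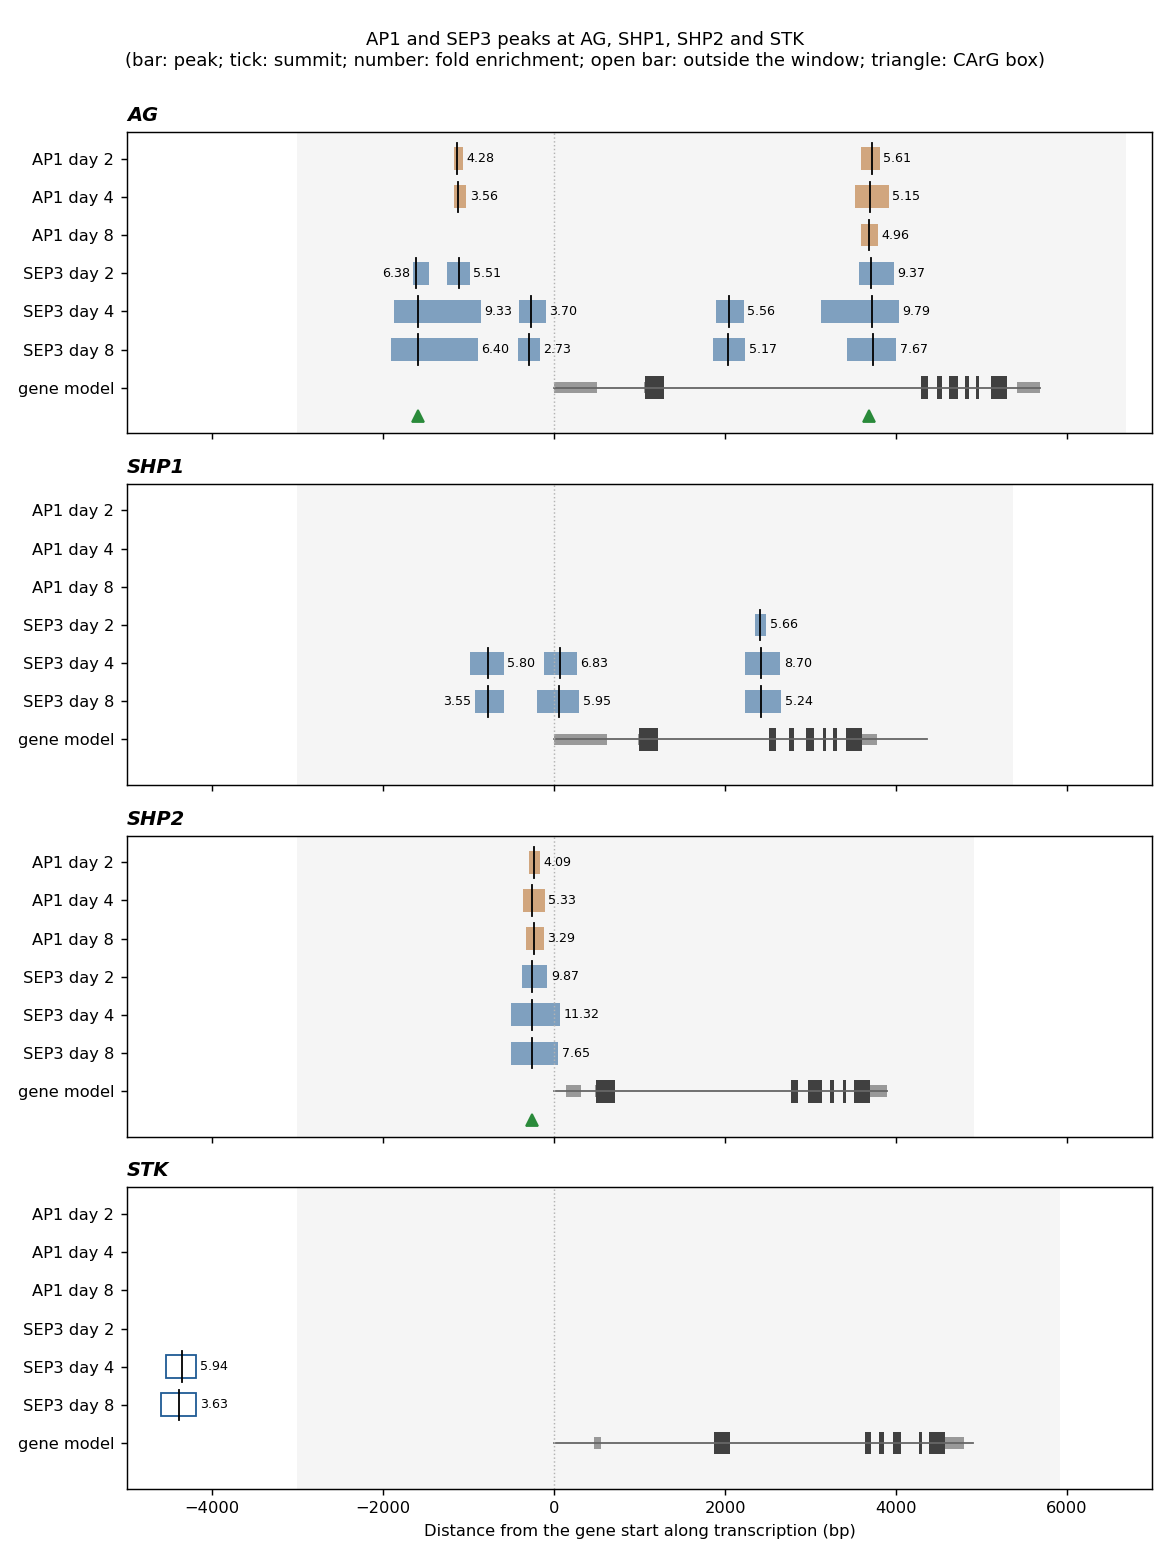
Peaks of the 6 lists at AG, SHP1, SHP2 and STK, plotted by distance from the gene start along transcription (bp), with AP1 rows in brown above SEP3 rows in blue. Bars are peaks, ticks are summits, the number beside a bar is the fold enrichment, triangles are CArG boxes, the grey field is the window of assignment, and dark blocks of the gene model (1 RefSeq transcript per gene) are coding exons. AP1 peaks are present at AG and SHP2 only, and the open SEP3 bars near STK lie outside its window.

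The stretches below carry the results that follow. They are read from the TAIR10 reference (ecotype Columbia) on the plus strand, which is also the strand of AG, SHP1 and SHP2, and the plants were Landsberg. The first 3 surround the only perfect CArG boxes in the assignment windows of the 4 genes, with the box in capitals. The stretches are chr4:10386436-10386636 in the second intron of AG, chr4:10381163-10381363 upstream of AG, and chr2:17819752-17819952 upstream of SHP2.
AG intron 2: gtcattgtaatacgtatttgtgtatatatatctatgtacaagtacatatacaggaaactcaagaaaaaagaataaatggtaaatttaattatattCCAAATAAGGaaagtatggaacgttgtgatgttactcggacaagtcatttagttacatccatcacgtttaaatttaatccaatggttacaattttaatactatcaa
AG upstream: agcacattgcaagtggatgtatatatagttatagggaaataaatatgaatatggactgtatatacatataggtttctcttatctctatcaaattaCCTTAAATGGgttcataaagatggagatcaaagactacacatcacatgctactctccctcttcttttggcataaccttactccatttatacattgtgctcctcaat
SHP2 upstream: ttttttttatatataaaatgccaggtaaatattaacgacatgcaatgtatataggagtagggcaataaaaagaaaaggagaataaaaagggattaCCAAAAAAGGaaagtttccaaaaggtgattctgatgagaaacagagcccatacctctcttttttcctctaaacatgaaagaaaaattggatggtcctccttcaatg

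AG lies on chromosome 4, 10382856 to 10388539, on the plus strand. Its second intron spans 10384147 to 10386981 in 3 of 4 RefSeq transcripts, and is known as the region through which LEAFY, WUSCHEL and several repressors act on the gene. The site near the 3′ end of this intron was the strongest of the AG peaks in every list, and it was present in all 6. With AP1 the intron peak had a fold enrichment of 5.61 at day 2, 5.15 at day 4 and 4.96 at day 8. These values exceeded those of 86.7%, 74.9% and 90.1% of the peaks in the same lists. With SEP3 the intron peak reached 9.37, 9.79 and 7.67 at days 2, 4 and 8, above 97.4%, 96.7% and 97.3% of peaks. The intron site thus stood among the top 10% of peaks in all SEP3 lists, and of the AP1 lists only at day 8.

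The 6 summits of the intron site lay within 46 bp of each other, between 10386540 and 10386586, or 3684 to 3730 bp downstream of the gene start. The box CCAAATAAGG, at 10386531 to 10386540 and printed above in its surroundings, lay inside the peak in all 6 lists. From its centre, the AP1 summits were 37.5 bp away at day 2, 19.5 bp at day 4 and 4.5 bp at day 8. The SEP3 summits were 24.5 bp away at day 2, 44.5 bp at day 4 and 50.5 bp at day 8. All 6 summits were on the same side of the centre of the box, towards the 3′ end of the intron, and the AP1 day 8 summit fell on the last base of the box itself. Whether the shifts between days exceed the spread of repeat libraries was not tested.

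The second AG site of the intron was found with SEP3 alone, at days 4 and 8. Its summit was at 10384904 at day 4 with a fold enrichment of 5.56, and at 10384886 at day 8 with 5.17. These peaks stood above 72.0% and 83.0% of their lists. No CArG box lay in either peak. A SEP3 peak just upstream of the gene was also called only at days 4 and 8, 271 and 298 bp before the start. It was the weakest of the AG peaks in those lists, with fold enrichments of 3.70 at day 4 and 2.73 at day 8, above only 36.4% and 29.5% of peaks.

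Farther upstream of AG, AP1 and SEP3 peaks differed in position. AP1 summits were called 1140 bp before the start at day 2 and 1128 bp before it at day 4, and no AP1 peak was called there at day 8. The AP1 fold enrichments were 4.28 and 3.56, and the day 4 peak stood above only 23.4% of its list. With −log10 q of 7.38 and 6.85 these were the least significant of the member peaks. SEP3 had a pair of separate peaks at day 2, with summits 1618 and 1110 bp before the start and fold enrichments of 6.38 and 5.51. At days 4 and 8 a single SEP3 peak of 1024 and 1019 bp covered the whole stretch, with its summit 1590 and 1599 bp before the start and fold enrichments of 9.33 and 6.40. This broad peak stood above 95.6% of its list at day 4 and 92.2% at day 8.

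The upstream box CCTTAAATGG, at 10381258 to 10381267, lay 24.5, 3.5 and 5.5 bp from the SEP3 summits of days 2, 4 and 8. No AP1 peak reached it in any list. The AP1 day 4 summit of the AG upstream region was 462 bp from the SEP3 summit of that day, although the peaks overlapped, whereas the AP1 and SEP3 summits of day 2 there were 30 bp apart. The AP1 site holds no perfect box. The 121 bases at chr4:10381668-10381788 around its day 4 summit are shown because they hold the nearest match, with the 10 bases that fit the box at all but 1 position in capitals.
AG AP1 upstream summit: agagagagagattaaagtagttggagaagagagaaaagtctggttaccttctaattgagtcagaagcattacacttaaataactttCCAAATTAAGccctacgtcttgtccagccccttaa
Matches of this kind are common, since 33.4% of all AP1 day 4 summits have a box with at most 1 mismatch within 50 bp.

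**Figure D2:**
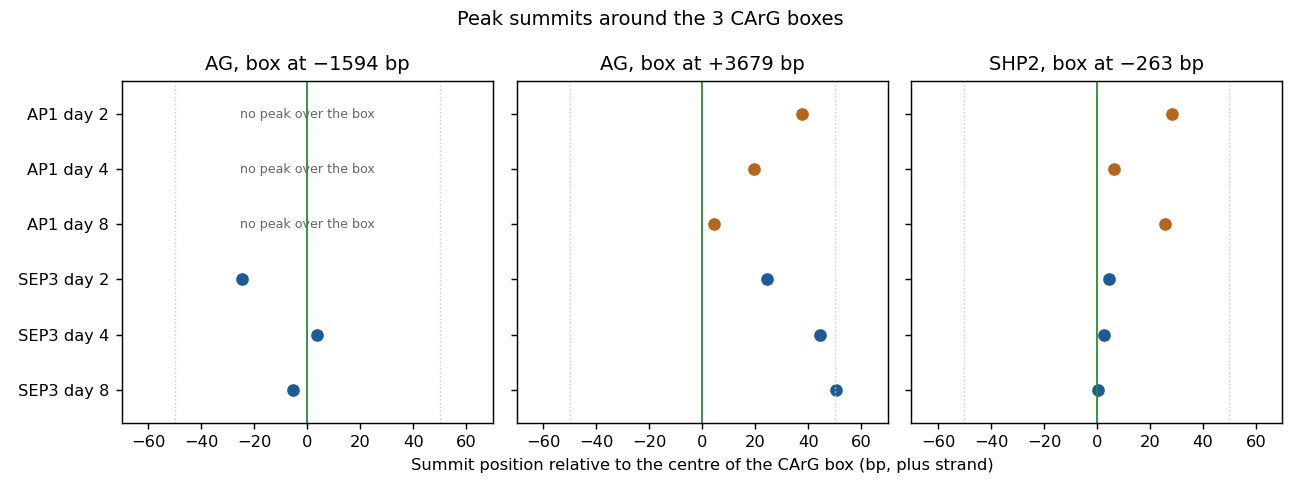
Position of each peak summit relative to the centre of the 3 CArG boxes (bp, plus strand), with AP1 lists in brown above SEP3 lists in blue and dotted lines at 50 bp. The box upstream of AG has SEP3 summits within 24.5 bp and no AP1 peak, and the boxes in the AG intron and upstream of SHP2 have summits of both factors within 50.5 bp and 28.5 bp.

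SHP2 lies on chromosome 2, 17820114 to 17824013, on the plus strand. All of its 6 peaks fell on 1 site upstream of the gene, with summits between 17819852 and 17819880, or 234 to 262 bp before the start. At days 2, 4 and 8 the AP1 peaks had fold enrichments of 4.09, 5.33 and 3.29, above 49.6%, 78.3% and 57.2% of the peaks in the lists. The SEP3 peaks reached 9.87, 11.32 and 7.65 at days 2, 4 and 8, above 98.2%, 99.2% and 97.2% of peaks. The SEP3 peak ranked 32nd, 55th and 211th in its lists, and the AP1 peak 246th, 206th and 460th. The same site thus stood near the top of the SEP3 lists and near the middle of the AP1 lists of days 2 and 8. With −log10 q limited to 10 or more, the AP1 day 2 peak of SHP2, with 8.17, was not kept, which leaves AG as the 1 member with AP1 at that day.

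The box CCAAAAAAGG, at 17819847 to 17819856, lay inside the SHP2 peak in all 6 lists. The AP1 summits were 28.5, 6.5 and 25.5 bp from its centre at days 2, 4 and 8, and the SEP3 summits 4.5, 2.5 and 0.5 bp. The SHP2 peaks were also assigned by the authors to HVA22F (AT2G42820), a gene of the HVA22 family that is transcribed away from SHP2 on the opposite strand, in all 6 lists. Position alone does not say which of these genes the site serves. No peak of AG or SHP1 was listed with a second gene.

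SHP1 lies on chromosome 3, 21738160 to 21742517, on the plus strand, and had SEP3 peaks at 3 sites. The site at 21740573 to 21740579 was called on all 3 days and falls in an intron of each transcript model that spans it, the second intron in most of them. At days 2, 4 and 8 its fold enrichment reached 5.66, 8.70 and 5.24, above 77.6%, 93.5% and 83.7% of peaks. The other sites were called at days 4 and 8. One had its summit 769 and 776 bp before the start, with fold enrichments of 5.80 at day 4 and 3.55 at day 8. The other had its summit 63 and 57 bp after the start, in the 5′ untranslated exon, with fold enrichments of 6.83 and 5.95. At day 8 this promoter-proximal peak was the strongest of SHP1, above 89.5% of its list, and at day 4 the intron peak was.

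No perfect CArG box lies in the SHP1 window of 8358 bp. A window without one is common, as 66.5% of protein-coding genes have none between 3000 bp upstream and 1000 bp downstream. At the intron site, the 121 bases at chr3:21740517-21740637 are shown because a box with 1 mismatch, in capitals, lies 3.5 bp from the day 4 summit.
SHP1 intron: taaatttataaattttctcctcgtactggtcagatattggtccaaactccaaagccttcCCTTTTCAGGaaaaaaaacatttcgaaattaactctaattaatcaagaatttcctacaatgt
As a reference, 34.7% of all SEP3 day 4 summits have a box with at most 1 mismatch within 50 bp.

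SHP1 and SHP2 are close paralogues, and the bound sequence upstream of SHP2 can be found again at SHP1. In a local alignment of the SHP2 peak region with the SHP1 window, 17819807 to 17820049 matched 21738112 to 21738332, with 187 of 208 aligned bases identical (89.9%) and 48 further columns in gaps. The SHP1 side of this alignment lies under the promoter-proximal SEP3 peak of days 4 and 8. The 30 bases at chr2:17819837-17819866 and chr3:21738143-21738172 are set side by side to compare the element at the SHP2 box.
SHP2 element: aaagggattaCCAAAAAAGGaaagtttcca
SHP1 element: agaaagattaCCAAAAATAAGGagtttcca
The capitals mark the box at SHP2 and the bases aligned to it at SHP1. The SHP1 element is 12 bases long and has 8 rather than 6 bases of A or T between CC and GG, so that it is not a CArG box as defined here. It starts 7 bp before the SHP1 start, and its centre was 64.5 bp from the SEP3 summit at day 4 and 58.5 bp at day 8. The longer form was searched for after this alignment was seen. It occurred within 100 bp of the summit in 0.804% of SEP3 day 4 peaks and 0.768% of SEP3 day 8 peaks, on either strand, against 7.29% and 7.10% for the 6-base form. The SHP2 site had peaks of AP1 and SEP3, and its aligned counterpart at SHP1 had SEP3 peaks only. SEP3 without AP1 was common, as only 13.2% and 12% of all SEP3 peaks overlapped an AP1 peak at days 4 and 8. No AP1 peak was called in the SHP1 window in any list, and how the sequence bears on this was not tested.

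STK lies on chromosome 4, 6236375 to 6241281, on the minus strand. Its window of 8907 bp held no peak and no perfect CArG box. The nearest SEP3 peaks, sought after the lists were seen, were at day 4 with a summit 4358 bp upstream of the start and at day 8 with a summit 4388 bp upstream, both beyond the window. Their fold enrichments were 5.94 and 3.63, above 76.1% and 59.4% of their lists. The authors listed them with AT4G09965 and AT4G09970, and neither has a CArG box within 50 bp of its summit. In the SEP3 day 2 list the nearest peak was 202248 bp away. In the AP1 lists the nearest peak was at least 388356 bp away.

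**Figure D3:**
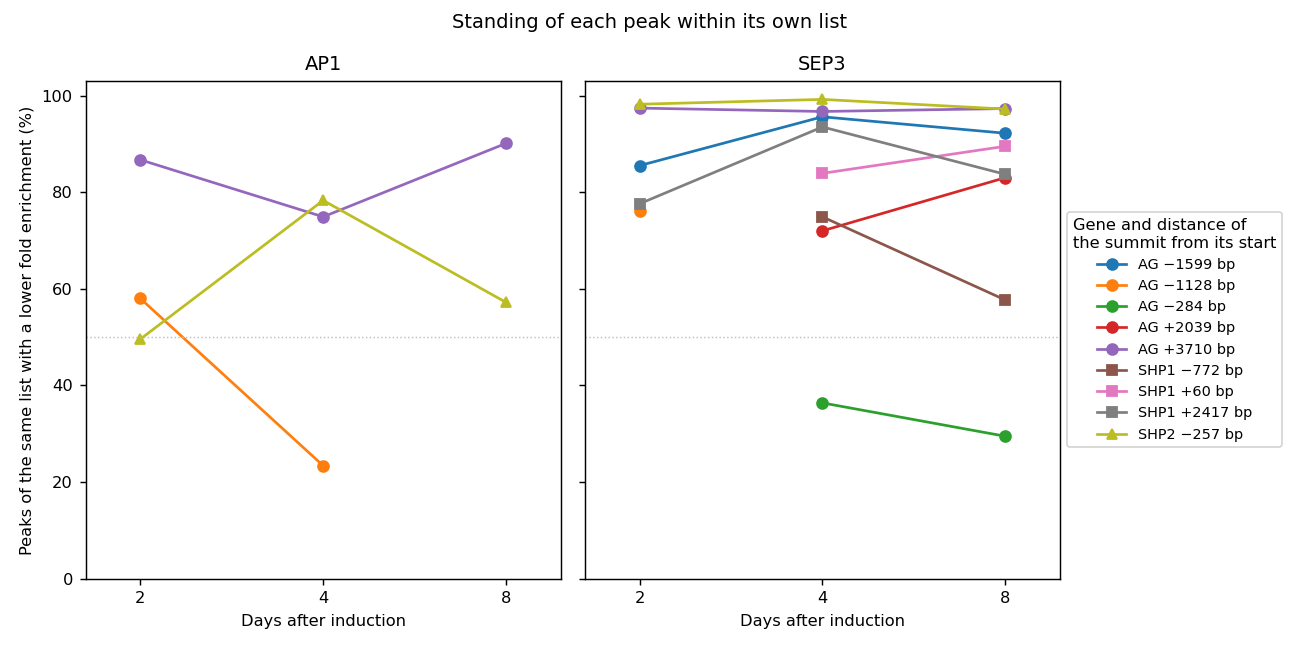
Percentage of peaks in the same list with a lower fold enrichment, for each member site by day after induction, with AP1 at the left and SEP3 at the right. Colours are sites, named by gene and summit distance from the start, and points are missing where no peak was called. The AG intron site (3710 bp) and the SHP2 site stand at 96.7% or higher in every SEP3 list, while the AP1 points lie between 23.4% and 90.1%.

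Joined by overlap of at least 1 bp, the 29 peaks formed 8 sites, 5 of them with SEP3 alone and 3 with AP1 and SEP3. None had an AP1 peak alone. The SEP3 lists are also longer than the AP1 lists of the same days, and of the 5 sites with SEP3 alone only the SHP1 intron site ranked within the first 498 peaks of a SEP3 list, at 396 on day 2 and 441 on day 4. The peaks of the other sites with SEP3 alone ranked between 810 and 5491. Joined instead by summits within 150 bp, 6 sites had SEP3 alone. The added site, at the box upstream of AG, ranked 256, 301 and 603 in the SEP3 lists of days 2, 4 and 8. All 6 lists shared 2 of the sites, the AG intron site and the SHP2 site. Another 4 sites, of AG and SHP1, were called with SEP3 at days 4 and 8 but not at day 2. Such absence at day 2 was common over all peaks, although its exact share was not counted. Of the 1776 SEP3 peaks of day 2, 1611 overlapped any of the 6843 peaks of day 4. The SEP3 lists of days 4 and 8 are several times longer than that of day 2, and list length was separated neither from the factor nor from the day.

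All AP1 peaks at the members (3, 3 and 2 at days 2, 4 and 8) overlapped a SEP3 peak called for that day. This was the common state of AP1 peaks, since 85.1%, 99.8% and 96.3% of all AP1 peaks did so. In the opposite direction, an AP1 peak overlapped 3 of 5, 3 of 8 and 2 of 8 SEP3 peaks at the members on these days, against 23.3%, 13.2% and 12% of all SEP3 peaks. In both directions the overlaps rest on only 3 sites, those of the AG intron, AG upstream and SHP2. They recur between days and are not independent cases. The summits of the overlapping AP1 and SEP3 peaks lay 4 to 46 bp apart, except for the 462 bp of the AG upstream pair at day 4. At the AG intron they were 13, 25 and 46 bp apart at days 2, 4 and 8, and at SHP2 they were 24, 4 and 25 bp apart.

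Between days, the AP1 peaks at the members were found again in 3 of 3 cases from day 2 at day 4, and in 2 of 3 cases from day 4 at day 8. The background was 83.5% and 66.1% of all AP1 peaks. The case not found again was the AG upstream peak. SEP3 peaks were found again in 5 of 5 cases from day 2 at day 4 and in 8 of 8 from day 4 at day 8, against 90.7% and 86.8% of all SEP3 peaks. Read backwards, both AP1 peaks of day 8 and all 8 SEP3 peaks of day 8 were present at day 4, against 58.7% and 74.8% of all peaks of those lists.

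A CArG box lay within 50 bp of 14 of the 29 summits. With AP1 these were 2 of 3, 2 of 3 and 2 of 2 summits at days 2, 4 and 8, against 7.03%, 6.17% and 5.58% of all summits. With SEP3 they were 3 of 5, 3 of 8 and 2 of 8, against 7.09%, 6.02% and 5.81%. The 14 summits rest on only 3 boxes in the genome, so they are not independent cases. The SEP3 day 8 count leaves out the AG intron box, whose centre is 50.5 bp from that summit. Over the gene windows, AG held 2 boxes, SHP2 held 1, and SHP1 and STK none. At least 1 box was present in 33.5% of protein-coding gene windows, and at least 2 in 7.48%.

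Genes of the same family and pathway were counted in the same way. The reference for each gene list is the share of all protein-coding genes. It was 1.78%, 3.55% and 3.89% with AP1 at days 2, 4 and 8, and 6.59%, 25.7% and 28.3% with SEP3. A peak in all 6 lists was found for 0.998% of protein-coding genes, and none in any list for 68.7%. Of 35 other MIKC-type MADS genes, 12, 13 and 15 had an AP1 peak at days 2, 4 and 8, and 22, 27 and 27 had a SEP3 peak. Those with a peak in all 6 lists were AP1 itself, FUL, AP3, SEP3, SEP4, AGL6, SOC1, SVP, TT16, AGL15 and AGL18. SEP3 peaks only, as at SHP1, were found for 13, though unlike SHP1 not all of these had one on every day. The share of all protein-coding genes with SEP3 peaks only was not counted. Most genes with a SEP3 peak at day 8 had no AP1 peak that day, with 28.3% against 3.89% of protein-coding genes. Like STK, 7 had no peak in any list, namely AGL79, AGL13, AGL72, MAF4, MAF5, AGL63 and AGL17. AP3 specifies petals and stamens with PI, FUL acts in the fruit valves, SOC1 and SVP control flowering time, and TT16 acts in the seed coat.

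Of 13 known regulators of AG, 1, 3 and 5 had an AP1 peak at days 2, 4 and 8, and 5, 9 and 9 a SEP3 peak. AP2, a repressor of AG in the outer whorls, was the only one with a peak in all 6 lists. The chromatin regulators ATX1 and CLF and the corepressor subunit SEU had none. Of 15 genes of carpel, ovule and stamen development, 2, 4 and 5 had an AP1 peak and 5, 11 and 12 a SEP3 peak at the same days. NGA1, which acts in style development, was present in all 6 lists. IND, a valve margin gene below SHP1 and SHP2, INO, which acts in the outer integument of ovules, and HEC3 had no peak.

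**Figure D4:**
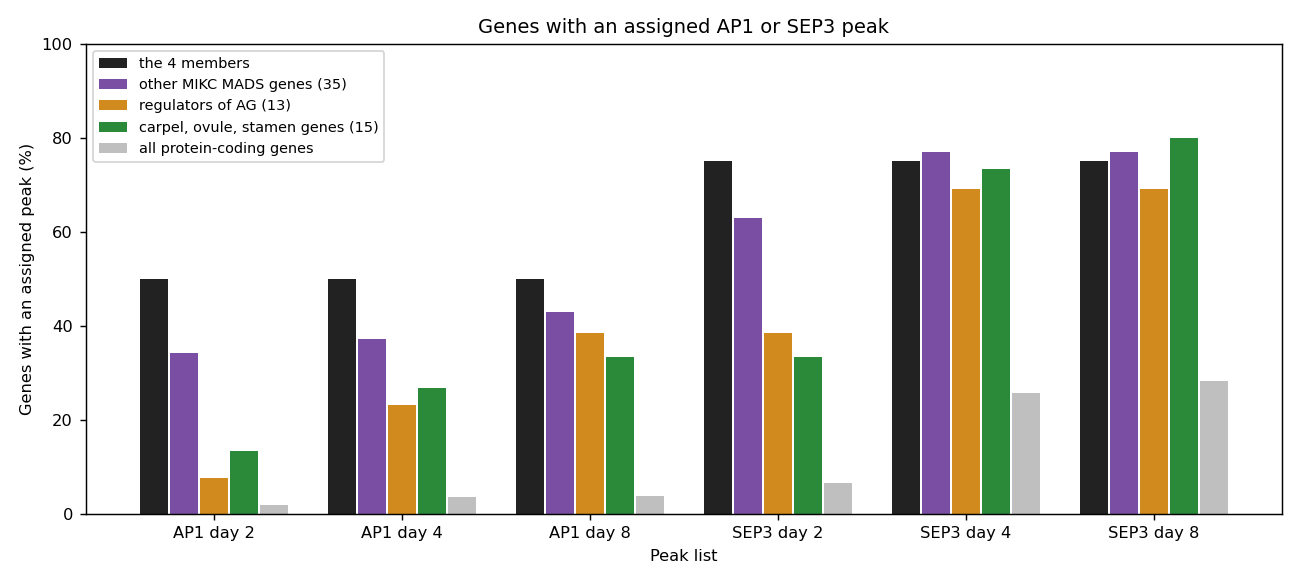
Percentage of genes with an assigned peak in each of the 6 lists, for the 4 members, 35 other MIKC MADS genes, 13 regulators of AG, 15 carpel, ovule and stamen genes, and all 27444 protein-coding genes. Bars start at 0 and have no error because each list is 1 combined peak call. The member bars stand at 50% in the AP1 lists and 75% in the SEP3 lists, where the grey bars reach 3.89% and 28.3% at most.

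The pattern over the 6 lists was compared by the mean absolute difference, in percentage points, of the standing of the strongest assigned peak, with 0 where there was none. Over the 6 lists, the nearest gene to AG was ETT (AT2G33860), an auxin response factor that patterns the gynoecium, at 2.57 points. Next came EOL2 and FOLK, which share 1 set of peaks, at 2.72 points. For SHP2 the nearest was HVA22F at 0 points, because the peaks are the same, and then AT5G58900 at 3.02 and AT5G04480 at 3.70 points. For SHP1 the nearest were AT1G55800, AT1G55805 and UKL3 at 0.60 points, all with the same peaks. Among the members, SHP2 was 12.82 points from AG, and SHP1 was 36.55 points from SHP2. For STK all genes without a peak tie, and none is named.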

How the data were processed

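AP1 and SEP3 binding was measured by ChIP-seq in 6 combinations of factor and day. The authors processed images with CASAVA 1.7 or 1.8, mapped reads to TAIR10 with Bowtie 0.12.7, removed organellar and multiply mapped reads, combined replicates and called peaks with MACS against the mock control, keeping q up to 0.001. The deposited lists give each peak's start, end and summit, its fold enrichment as a linear ratio, and −log10 of its p-value and q-value; the 6 columns of p-values were not used. Blank lines at the end of the AP1 day 4 and day 8 lists (230 and 111) were dropped. Peak positions fitted within the RefSeq nuclear chromosomes of TAIR10.

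Members were found by locus in the gene columns. Peaks were ranked by fold enrichment within a list, shared if they overlapped by at least 1 bp, and searched for CArG boxes within 50 bp of the summit. The box is its own reverse complement, so both strands are covered. Local alignment used Biopython with scores of 2 for a match, -3 for a mismatch, -5 to open a gap and -2 to extend it. Gene models are from RefSeq. Counting functions were checked on simulated peaks and sequences. All members are named with every peak. Other genes are named if they are the 3 nearest in pattern, share a peak with a member, or, in a chosen list, have a peak in all 6 lists or in none. The members and gene lists were chosen with earlier results of these data known. Groups were taken from sample titles. Depth of the libraries was not analysed here, so no interval is given. Alternatives were a stricter q, lists of equal length, other windows, other definitions of overlap and of the box, and ranking by q.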

Additional observations from a re-analysis of the deposited data

How the results depend on the processing

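The count of members with an assigned peak moved in 1 of 24 alternative values and otherwise stayed within 1.5-fold of the reported one. The counts of member peaks moved in 4 of 24 values, the overlaps between lists in 10 of 36 and the counts of boxes in 3 of 18, and all of these are given here. With −log10 q of at least 10, AP1 day 2 had 1 member instead of 2 and 1 member peak instead of 3, since the SHP2 peak and the AG upstream peak dropped out, and 1 of 3 AP1 peaks of day 2 remained paired with SEP3 of the day, with AP1 of day 4, and 1 of 5 SEP3 peaks with AP1. Among the 498 peaks of highest fold enrichment, 4 of 8 member peaks were left in the SEP3 day 4 list and 2 of 8 in the day 8 list, where 2 members instead of 3 had a peak, as SHP1 dropped out. A window of 1000 bp upstream to the gene end kept 3 of 5 SEP3 day 2 peaks. With a reciprocal overlap of 50%, 1 AP1 peak at day 2, 0 at day 4 and 0 at day 8 were shared with SEP3, the counts of shared SEP3 peaks were 1, 0 and 0, and 1 of 5 SEP3 day 2 peaks was shared with day 4. Median widths of the member peaks were 133, 255 and 210 bp with AP1 and 272, 407.5 and 456 bp with SEP3 at days 2, 4 and 8. With 1 mismatch allowed in the box, 5, 5 and 4 SEP3 member summits had one, instead of 3, 3 and 2. Joining by summits within 150 bp gave 9 sites instead of 8, as the AG upstream region split, and 6 sites with SEP3 alone instead of 5. Ranking by −log10 q moved no strongest peak by more than 10 points. No paired analysis was possible because each list combines its replicates and no test was made. Library depth was not analysed here, so how far it limits the weaker peaks, such as the AP1 peak upstream of AG, is not known.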

Other observations

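A motif of LEAFY, CCANTG on either strand, lay within 50 bp of 1 of 3 AP1 summits at the members at day 2, and of none at days 4 and 8. The SEP3 counts were 0 of 5, 2 of 8 and 2 of 8 at days 2, 4 and 8. Among all summits the motif was as common as 14.7%, 11.5% and 11.1% in the AP1 lists and 12.1%, 10.3% and 10.4% in the SEP3 lists. All member summits with the motif were in the second intron of AG. Within the span of the peaks at the 3′ site of that intron, copies start at 10386050 and 10386168 upstream of the CArG box, and at 10386609, 10386610 and 10386656 downstream of it, where those at 10386609 and 10386610 overlap on opposite strands. The overlapping copies also lay inside the AP1 peaks of days 4 and 8 and the SEP3 peak of day 2. The summits of those peaks, at 10386555, 10386540 and 10386560, had no whole copy within 50 bp. The overlapping copies thus lay inside the peak of every list at this site. Whether they were counted depended on the distance of the summit from them. The remaining copies lay inside only some of these peaks. The other SEP3 summits with the motif were at the intron site called at days 4 and 8 only.

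Peaks of any list covered 27.6% of the AG window of 9684 bp, 15.8% of the SHP1 window, 7.34% of the SHP2 window and none of the STK window. Boxes with at most 1 mismatch numbered 13 at AG, 16 at SHP1, 12 at SHP2 and 13 at STK. The windows of SHP1, SHP2 and STK are 8358, 7900 and 8907 bp long. Such boxes were not counted over all gene windows, and their relation to the peaks was not tested.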
